A study of Mus musculus with 227 samples.

Results

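The small leucine-rich proteoglycans (SLRPs) are secreted matrix proteins with a short core of leucine-rich repeats, most of which carry glycosaminoglycan chains. The 10 genes examined were decorin (Dcn), biglycan (Bgn), asporin (Aspn), fibromodulin (Fmod), lumican (Lum), prolargin (Prelp), osteomodulin (Omd), epiphycan (Epyc), osteoglycin (Ogn) and chondroadherin (Chad). They were taken by name from a table of 24388 genes, and all 10 were measured. The table holds 1 column per cell, and the cells came from the long bones of postnatal day 3 mice of the BL6 strain. They were captured singly on the Fluidigm C1 microfluidic platform and amplified with the SMARTer kit. The submitters call them skeletal stem, progenitor and stromal cells, and the comparisons here ask how SLRP transcripts are distributed among them.

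The populations, 4 in number, were defined by surface gates. Every gate excluded CD45 (leukocytes) and Ter-119 (erythroid cells) and required AlphaV integrin, and the mSSC, CSP and THY+ gates also excluded Tie2 (endothelium). Within that, mSSC cells were negative for Thy, 6C3 and CD105 and positive for CD200, while CSP cells were negative for Thy and 6C3 and positive for CD105. THY+ cells were positive for Thy and CD105 and negative for 6C3, and 6C3+ cells were positive for 6C3 and CD105 and negative for Thy. No genetic change or treatment is named, and neither is the number of mice.

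In cartilage, bone and tendon the SLRPs bind collagen fibrils and influence fibril diameter and spacing, and several also bind TGF beta or growth factor receptors. Class I holds decorin and biglycan, which carry chondroitin or dermatan sulfate, and asporin, which carries an aspartate stretch in place of such chains. Class II holds fibromodulin, lumican, prolargin and osteomodulin, of which several carry keratan sulfate. Class III holds epiphycan and osteoglycin, and chondroadherin belongs to a class without the usual chains.

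The authors deposited FPKM (fragments for each kilobase of a transcript, relative to all mapped fragments), so levels of different genes are compared per length. Detection was set at 1 FPKM or more, and the cells used were those with at least 1000 genes detected, namely 37 of 37 mSSC, 11 of 26 CSP, 43 of 72 THY+ and 34 of 92 6C3+ cells. Median gene number in the cells used lay between 2534 (mSSC) and 3033 (CSP). The median share of FPKM taken by spike-in transcripts was 0.00117% for mSSC and 0.000945% for CSP, against 20.8% for THY+ and 18.9% for 6C3+. Library indices place mSSC and CSP together and apart from THY+ and 6C3+, with 0 index pairs shared between populations, so population and index set cannot be told apart outside the comparison of CSP with mSSC. Each population is 1 sample, because cells are not replicates. Differences therefore carry no p-value, and intervals on shares of cells are exact Clopper-Pearson 95% intervals that cover counting error only. Endothelial, myeloid, erythroid and skeletal muscle markers were near 0: the highest summed FPKM of any such list in any cell was 93.7.

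The family was transcribed in all 4 populations, with different members in the lead. The 10 genes together took a median of 1.22% of the FPKM of endogenous genes in mSSC, 1.02% in CSP, 0.554% in THY+ and 1.07% in 6C3+ cells. A cell held a median of 7 detected members in mSSC, 8 in CSP, 5 in THY+ and 5.5 in 6C3+, and every cell held at least 2. Ranked by mean log2(FPKM + 1), biglycan was the first member in each population. The second member was chondroadherin in mSSC and CSP, asporin in THY+ and decorin in 6C3+.

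**Figure D1:**
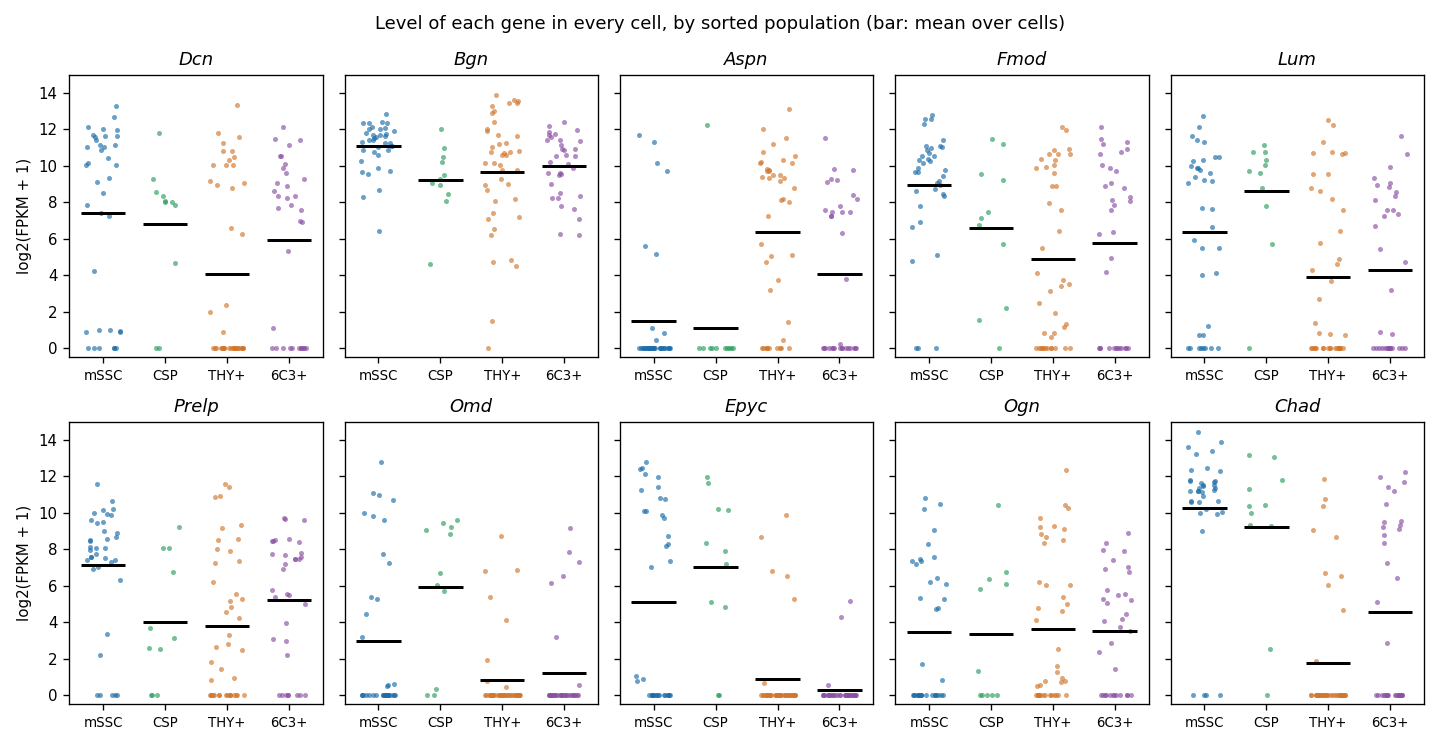
Each point is 1 cell, the vertical axis is log2(FPKM + 1), the horizontal axis is the sorted population and black bars are means over cells. Bgn is high in nearly every cell, Chad and Epyc are high mainly in mSSC and CSP, Aspn mainly in THY+ and 6C3+, and most other members are split between cells near 0 and cells at 5 or more.

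Decorin, which binds collagen fibrils and TGF beta, was present in most mSSC, CSP and 6C3+ cells. Among the 37 mSSC cells Dcn ranged from 0 to 10089.7 FPKM with a median of 1059. The 11 CSP cells had a median of 262.7 (0 to 3574), and the 34 6C3+ cells a median of 217 (0 to 4424). THY+ cells had a median of 0 and a maximum of 10575, so more of them were at 0 while the highest cell was close to that of mSSC. Dcn was detected in 26 of 37 mSSC cells (70.3%, 53.02 to 84.1), 9 of 11 CSP cells (81.8%, 48.2 to 97.7), 23 of 34 6C3+ cells (67.6%, 49.5 to 82.6) and 19 of 43 THY+ cells (44.2%, 29.1 to 60.1). All neighbours in this order overlap in their intervals. In 5 mSSC cells Dcn lay between 0 and 1 FPKM, so the detection limit matters for it there.

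Biglycan, the decorin relative with a second chain site, was the most evenly distributed member. Bgn was found in all 37 mSSC, all 11 CSP and all 34 6C3+ cells and in 42 of 43 THY+ cells. Median FPKM was 2742 in mSSC (85.03 to 7429.9), 614 in CSP (23.9 to 4099), 1523 in THY+ (0 to 15390.2) and 1353 in 6C3+ (73.1 to 5361). The ranges overlap, and THY+ held both the lowest and the highest cell. By mean log2(FPKM + 1), Bgn ranked 29th of all genes in mSSC, 77th in CSP, 28th in THY+ and 11th in 6C3+. It was the highest SLRP in 27 of 43 THY+ and 21 of 34 6C3+ cells, against 10 of 37 mSSC cells and 1 of 11 CSP cells.

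Asporin, which binds collagen and TGF beta, was found mainly in THY+ and 6C3+ cells. THY+ cells had a median of 287 FPKM (0 to 8832) and 6C3+ cells a median of 6.63 (0 to 2928), while the medians of mSSC and CSP were 0. It was detected in 32 of 43 THY+ cells (74.4%, 58.8 to 86.5), 17 of 34 6C3+ cells (50%, 32.4 to 67.6), 7 of 37 mSSC cells (18.9%, 7.96 to 35.2) and 1 of 11 CSP cells (9.09%, 0.230 to 41.3). The interval of THY+ does not overlap those of mSSC and CSP. In the few mSSC and CSP cells that held it the level was not low: the highest mSSC cell had 3318 FPKM and the single CSP cell 4767. That CSP cell had Col2a1, the chondrocyte collagen, below 1 FPKM. It also had Col1a1, the collagen of bone and tendon, at 30585 FPKM and Tnmd, a tendon marker, at 4406 FPKM. The other 10 CSP cells had Aspn at 0 and Col2a1 detected.

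Among class II members, fibromodulin and prolargin led in mSSC. Fibromodulin, which binds collagen type I and is prominent in cartilage and tendon, had a median of 885 FPKM in mSSC (0 to 7031). Its medians were 140.6 in CSP (0 to 2803), 10.6 in THY+ (0 to 4481) and 209.95 in 6C3+ (0 to 4513). Detection of Fmod ranged from 34 of 37 mSSC cells (91.9%, 78.1 to 98.3) to 22 of 34 6C3+ cells (64.7%, 46.5 to 80.3). Prolargin, a heparin-binding SLRP of cartilage, had a median of 266.995 FPKM in mSSC (0 to 2998), 7.66 in CSP (0 to 597), 5.13 in THY+ (0 to 3080.0) and 86.4 in 6C3+ (0 to 839.6). Cells of the mSSC gate were thus the most uniformly high for both genes, and the highest THY+ cell lay above the mSSC median for each.

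Lumican and osteomodulin led in CSP instead. Lumican, a keratan sulfate proteoglycan of cornea and other connective tissue, had a median of 850.4 FPKM in CSP (0 to 2258), against 208 in mSSC (0 to 6930), 16.9 in 6C3+ (0 to 3168) and 0.800 in THY+ (0 to 5863). Lum was found in 10 of 11 CSP cells (90.9%, 58.7 to 99.8) and in 21 of 43 THY+ cells (48.8%, 33.3 to 64.5). Osteomodulin, an acidic SLRP of mineralized tissue, had a median of 103.8 FPKM in CSP (0 to 767) and of 0 in the other 3 populations. It was detected in 8 of 11 CSP cells (72.7%, 39.03 to 94.0), 13 of 37 mSSC cells (35.1%, 20.2 to 52.5), 6 of 34 6C3+ cells (17.6%, 6.76 to 34.5) and 6 of 43 THY+ cells (13.95%, 5.30 to 27.9). The highest Omd cell was nevertheless an mSSC cell, at 7136 FPKM. Cell number limits these results: CSP is represented by 11 cells, and in the 15 CSP cells with fewer genes Lum was detected in 7 and Omd in 0.

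Of the class III genes, Epyc was found mainly in CSP and mSSC and Ogn in all 4 populations. Epiphycan, a cartilage SLRP of the growth plate, had a median of 242.5 FPKM in CSP (0 to 4049) and 1.03 in mSSC (0 to 7131), and a median of 0 in THY+ and 6C3+. It was detected in 9 of 11 CSP cells (81.8%, 48.2 to 97.7) and 19 of 37 mSSC cells (51.4%, 34.4 to 68.1), against 2 of 34 6C3+ cells (5.88%, 0.720 to 19.7) and 5 of 43 THY+ cells (11.6%, 3.89 to 25.1). The interval of mSSC lies above both of the latter. The mSSC values were split: 19 cells lay between 1.03 and 7131 FPKM and 16 were listed at 0. Osteoglycin, first described in bone, was detected in 48.6% to 64.7% of the cells of every population, with medians of 0.796 FPKM in mSSC, 1.51 in CSP, 1.36 in THY+ and 14.2 in 6C3+. Its highest cell was a THY+ cell at 5298 FPKM.

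Chondroadherin, a cartilage protein that binds chondrocytes through an integrin, was high in nearly all mSSC and CSP cells and listed at 0 in 33 of 43 THY+ cells. The medians were 2390.1 FPKM in mSSC (0 to 21910), 1310.2 in CSP (0 to 9322), 3.06 in 6C3+ (0 to 4843) and 0 in THY+ (0 to 3661). It was detected in 33 of 37 mSSC cells (89.2%, 74.6 to 97.0), 10 of 11 CSP cells (90.9%, 58.7 to 99.8), 17 of 34 6C3+ cells (50%, 32.4 to 67.6) and 10 of 43 THY+ cells (23.3%, 11.8 to 38.6). In mSSC no cell was intermediate, since the 33 cells with the transcript all had at least 504 FPKM and the other 4 were listed at 0. It was the highest SLRP in 13 of 37 mSSC and 5 of 11 CSP cells, in 2 of 34 6C3+ cells and in 0 of 43 THY+ cells.

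**Figure D2:**
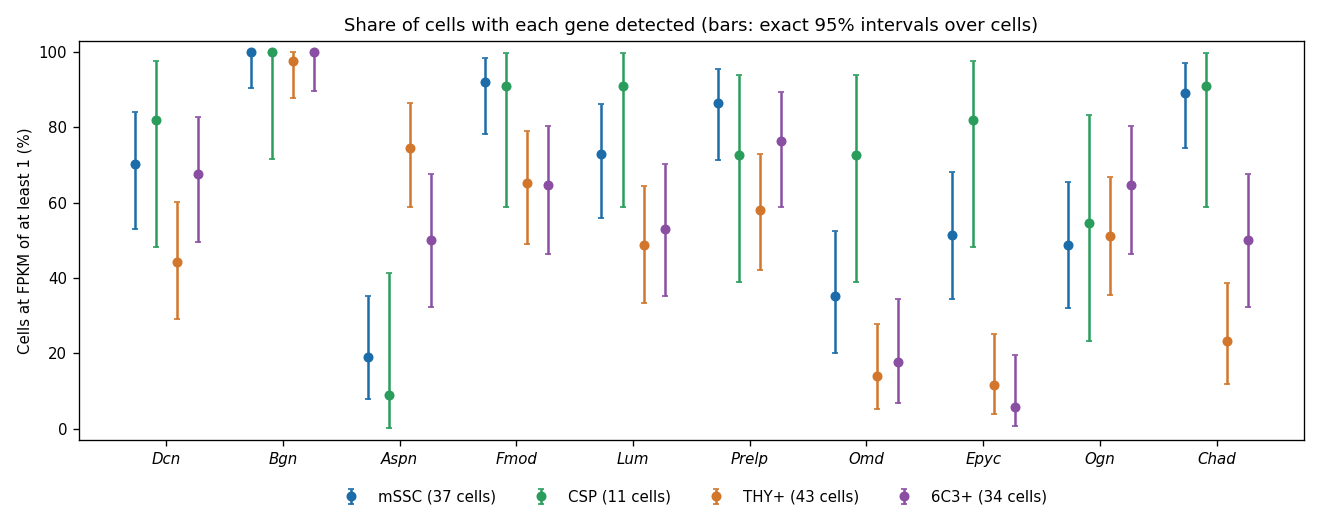
Points are the percentage of cells with FPKM of at least 1 for each gene (vertical axis, %) in the 4 populations, and bars are exact 95% intervals over cells, which cover counting error only. Between the populations with the highest and the lowest mean level, intervals are separate for 4 of the 10 genes (Aspn, Omd, Epyc and Chad), and for the other 6 genes they overlap.

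Ordering the populations by mean level for each gene gave 30 pairs of neighbours, and in 29 of them the intervals on the share of cells overlapped. The exception was the step from mSSC to THY+ for Epyc. The order is by mean level and the intervals are on detection, so an overlap does not show that neighbours have the same level. Bgn, found in 97.7% to 100% of the cells of each population, could hardly differ in share. At the ends of the order the shares were separate for 4 of 10 genes.

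Between populations, differences were taken in mean log2(FPKM + 1), and a difference of at least 2 on that scale, which is 4-fold, was counted. This scale understates the fold of low genes. For reference, the share of all genes past the same limit was computed over genes that at least 10% of cells held in either population. Since 8 to 10 of the members were found in at least 50% of the cells of either population, the share among genes found that often (the frequent genes), a reference chosen after the data were seen, stands beside it.

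THY+ differed from mSSC in 8 of the 10 genes. The 1 gene past the limit upward was Aspn (4.88), against 1.7% of 8963 genes tested and 5.53% of the frequent ones. The 7 past it downward were Chad (-8.49), Epyc (-4.20), Fmod (-4.04), Dcn (-3.35), Prelp (-3.34), Lum (-2.50) and Omd (-2.16), against 2.71% of genes tested and 11.4% of the frequent ones. The median difference over the 10 members was -2.92, and over all genes tested it was 0.13. Only Bgn (-1.38) and Ogn (0.20) stayed within the limit. Of the 8 past it, Chad and Epyc were past it under all 10 alternative settings. All 12 measured chondrocyte markers were also lower in THY+ by at least that much, and their summed FPKM had a median of 520 in THY+ (0 to 40313) and 52932 in mSSC (23.9 to 141114). The part of the chondrocyte markers in the SLRP differences was not tested.

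THY+ and CSP differed in 6 genes. Aspn was higher (5.29), against 3.05% of genes tested, and Chad (-7.42), Epyc (-6.16), Omd (-5.10), Lum (-4.72) and Dcn (-2.73) were lower, against 5.42%. Among frequent genes the corresponding shares were 7.30% and 17.4%. Aspn was past the limit in 9 of 10 settings and fell to 0.92 with the log2 of the mean FPKM, to which the single CSP cell with Aspn contributes. Dcn had the opposite sign with the log2 of the mean FPKM (0.43) and was at -0.51 with all cells. Fmod (-1.67) and Prelp (-0.21) were within the limit here, unlike in the comparison of THY+ with mSSC. The 2 comparisons share the THY+ cells, so they are not separate evidence on those cells.

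In 6C3+, 5 genes passed the limit against mSSC and 5 against CSP. Against mSSC, Aspn was higher (2.54), with 0.682% of genes tested past the limit upward and 2.45% of the frequent ones. That Aspn value was 0.14 with all cells, 0.21 with the log2 of the mean FPKM and 1.56 in cells matched on gene number. Chad (-5.73), Epyc (-4.79), Fmod (-3.16) and Lum (-2.13) were lower, with 4.06% and 16.2% past it downward. Against CSP, Aspn was higher (2.95, with 1.7% and 4.86%), and Epyc (-6.74), Omd (-4.71), Chad (-4.66) and Lum (-4.34) were lower (with 7.1% and 21.9%). The summed chondrocyte markers had a median of 2438 FPKM in 6C3+ cells, between THY+ and the other populations. The Aspn value against CSP depends on the averaging, as 1 CSP cell held that transcript at a high level: with the log2 of the mean FPKM it was -0.80, the opposite sign, and without mSSC and CSP cells lacking Col2a1, which leaves that cell out, it was 4.06.

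THY+ and 6C3+ differed from each other in 2 genes. Chad was higher in 6C3+ than in THY+ (2.76), where 0.202% of genes tested and 0.862% of the frequent ones were past the limit upward. Aspn was lower in 6C3+ (-2.34), where 0.877% and 2.94% were past it downward. Dcn (1.85), Prelp (1.45) and Fmod (0.89) were higher in 6C3+ within the limit. With FPKM rescaled without spike-ins, Dcn (2.75) and Prelp (2.23) were past it, and with all cells Dcn (-0.14), Prelp (-0.34) and Fmod (-0.86) had the opposite sign. Chad fell within the limit in 3 of 10 settings, to 0.84 at the lowest. Part of the THY+ cells carried pericyte and smooth muscle transcripts. Of the 13 THY+ cells with at least 6 of 11 such markers, 12 had Aspn, with a median of 738 FPKM, and of the other 30, 20 had it, with a median of 32.9. Without cells of that kind the Aspn difference was -1.42, and 0 members were lower past the limit in 6C3+ than in THY+. Of the marker lists, 5 of 11 pericyte and smooth muscle genes were lower and 4 of 12 chondrocyte genes higher in 6C3+ than in THY+.

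CSP and mSSC, whose library indices lie together, differed within class II. Omd (2.94) and Lum (2.22) were higher in CSP, against 3.52% of genes tested and 11.1% of the frequent ones, and Epyc lay just under the limit (1.96). Prelp (-3.12) and Fmod (-2.37) were lower, against 1.8% and 4.91%. Chad, which both populations hold at high level, differed by -1.07, and Bgn by -1.83. With all 26 CSP cells included, whose median gene number was 566, 0 members were higher and 7 lower. The share of all genes past the limit under that setting is not given here, so these counts have no reference. With all cells, Epyc (-2.002), Lum (-1.78) and Omd (-0.47) had the opposite sign. The direction for those 3 genes thus depends on leaving out cells with under 1000 genes. Within the 11 CSP cells used, r with log2 gene number was 0.84 for Epyc, 0.59 for Lum and 0.50 for Omd. In mSSC it was 0.04, 0.38 and 0.12. For Prelp and Fmod it was 0.33 and -0.12 in CSP. The part of gene number in these differences was not tested. With the log2 of the mean FPKM, Epyc (-0.23) and Omd (-0.56) also had the opposite sign, as did Chad (0.88) among cells with at least 2000 genes. Prelp was lower in CSP under each of the 10 settings tried.

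**Figure D3:**
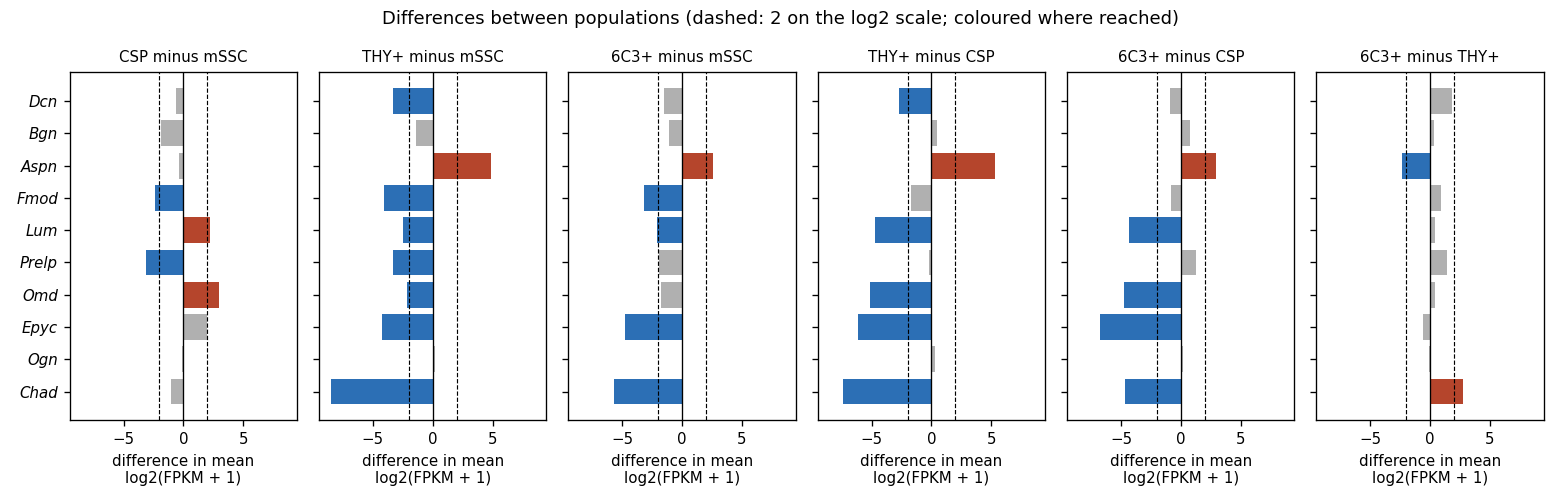
Bars are differences in mean log2(FPKM + 1) for each of the 10 genes (vertical axis) in the 6 comparisons, as the first named population minus the second. Dashed lines mark 2 in either direction, and coloured bars reach it. Aspn points up and Chad and Epyc point down wherever THY+ or 6C3+ is set against mSSC or CSP, and Bgn and Ogn stay within the lines in every panel.

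The share of FPKM taken by spike-ins was larger in THY+ and 6C3+ cells, and summed endogenous FPKM also differed between populations. Its median was 906237 in mSSC, 578425 in CSP, 752613 in THY+ and 366748 in 6C3+ cells. It thus differed between CSP and mSSC, which had almost no spike-ins, and between THY+ and 6C3+, whose spike-in shares were close. The differences were therefore also computed with equal endogenous totals, which changes more than the spike-in share. When endogenous FPKM was rescaled to 1000000 per cell, the median of all genes tested moved by 0.38 for 6C3+ minus mSSC, 0.29 for 6C3+ minus THY+, 0.28 for 6C3+ minus CSP and 0.14 for CSP minus mSSC. For the other 2 comparisons it moved by less than 0.1. Over the frequent genes the median moved more, by 0.98 for 6C3+ minus mSSC, 0.86 for 6C3+ minus THY+, 0.56 for 6C3+ minus CSP, 0.38 for CSP minus mSSC, 0.18 for THY+ minus mSSC and -0.20 for THY+ minus CSP. Bgn moved from -1.10 to 0.47 in 6C3+ minus mSSC, and Ogn from -0.11 to 0.52 in 6C3+ minus THY+, so the directions of these differences depend on the scaling. Relative to the median of the frequent genes, 1 member was higher and 6 lower in THY+ than in mSSC, and on the rescaled values 1 and 7. For 6C3+ minus THY+ these counts were 2 and 0, then 2 and 1. For 6C3+ minus CSP they were 2 and 4, then 3 and 4, and for CSP minus mSSC 1 and 3, then 2 and 2. On both scales they were 1 and 3 for 6C3+ minus mSSC and 1 and 5 for THY+ minus CSP.

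Within a population, single cells showed which members occurred together. These are correlations over cells of 1 sample that share an index set and differ in gene number, given as descriptions. Of the 37 mSSC cells, 30 had Chad without Aspn, 4 had Aspn without Chad, 3 had both and 0 had neither. Thus 3 of the 7 mSSC cells with Aspn also had Chad. Pearson's r was -0.90, and Spearman's rho was -0.45. Of the 4 cells with Aspn and without Chad, 2 had no Col2a1. The other 2 had it at 1.08 and 3.01 in log2(FPKM + 1), while every remaining mSSC cell was at 12.2 or more. Chad and Col2a1 themselves had r = 0.95 and rho = 0.40 in mSSC. The same 4 cells are the only mSSC cells without Chad, so they weigh on both r values. In 6C3+ the same pair of SLRPs was held together in 4 cells, as Aspn alone in 13, as Chad alone in 13 and as neither in 4 (r = -0.43, rho = -0.42). In THY+ the correlation was weaker (r = -0.19, rho = -0.07), and 5 of the 10 cells with Chad also had Aspn. Over the cells of all 4 populations r was -0.58.

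**Figure D4:**
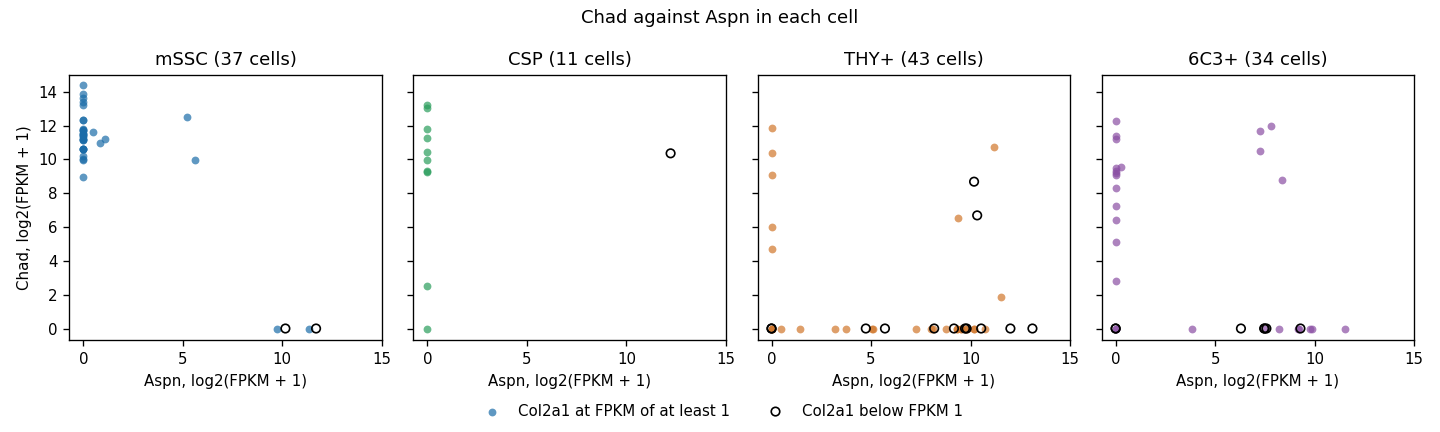
Chad (vertical axis) against Aspn (horizontal axis), both in log2(FPKM + 1), with 1 point per cell in each population; open circles are cells with Col2a1 below 1 FPKM. In mSSC, 4 cells lie at the lower right, 2 cells with both genes lie in the upper middle and the others are at the upper left, and in 6C3+ 4 cells hold both genes.

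In the 6C3+ gate several SLRPs varied with cartilage transcripts. Over its 34 cells, Fmod followed Col2a1 (r = 0.87, rho = 0.87), Chad (r = 0.81, rho = 0.82) and Acan, the large cartilage proteoglycan (r = 0.74). Fmod also followed Prg4, the lubricin gene of the joint surface (r = 0.78), and Bgn (r = 0.70) and Prelp (r = 0.59). Lum ran the other way, with r = -0.57 against Fmod and r = -0.56 against Col2a1, and Aspn had r = -0.50 against Fmod and 0.51 with Lum. Of the 7 6C3+ cells without Col2a1, 0 had Chad and 1 had Fmod, while 5 had Lum and 5 had Aspn. Of the 27 with Col2a1, 17 had Chad, 21 Fmod, 13 Lum and 12 Aspn. Other members did not split this way: Prelp was in 5 of 7 and 21 of 27, Ogn in 6 of 7 and 16 of 27, and Bgn in all cells of both kinds. Gene number moved little with Fmod across these cells (r = -0.03) but more with Aspn (r = 0.53). The part of gene number in the Aspn values was not tested.

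In THY+ cells the closest pair was Dcn with Lum (r = 0.71, rho = 0.66). Both were detected in 15 cells, 1 of them in 10 and neither in 18. In mSSC the same pair had r = 0.27 and in 6C3+ r = -0.06, so this pairing was not seen there. The 13 THY+ cells with pericyte markers held Dcn in 3 and Lum in 3 cells, against 16 and 18 of the other 30. Among the 30 THY+ cells with Col2a1 detected the correlation was 0.59. Ogn and Fmod also occurred together in THY+ (r = 0.58), and both were rarer in the cells with pericyte markers, at 2 and 5 of 13 against 20 and 23 of 30. In mSSC the higher correlations among members were Bgn with Fmod (r = 0.67) and Lum with Prelp (r = 0.60). The 11 CSP cells are too few to describe pairs beyond the single cell with Aspn.

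**Figure D5:**
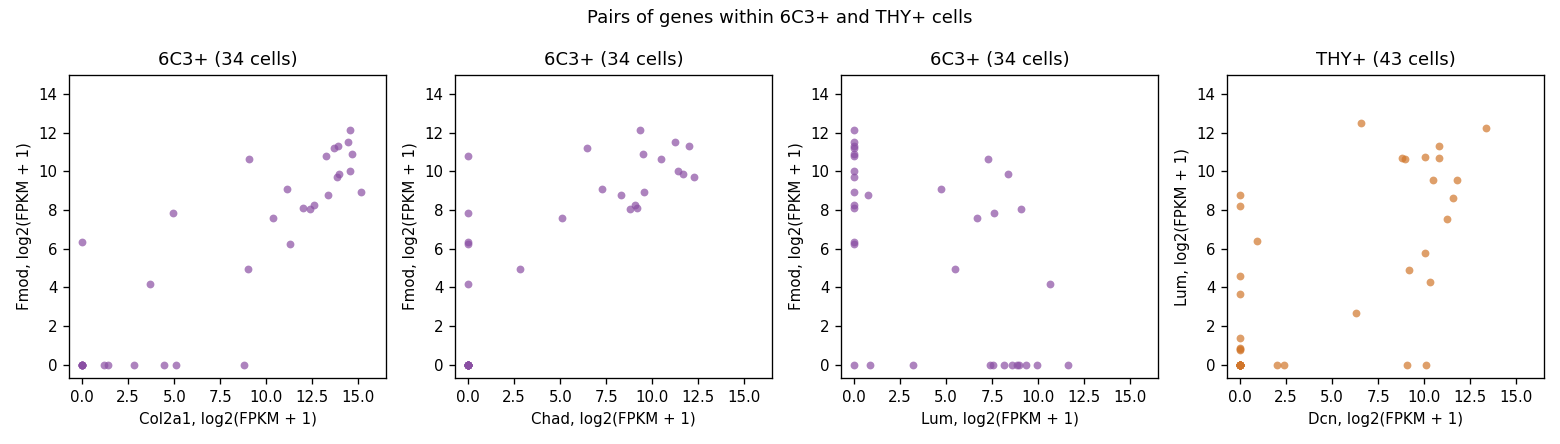
Each point is 1 cell and both axes are log2(FPKM + 1). From left to right: Fmod against Col2a1, Fmod against Chad and Fmod against Lum in 6C3+ cells, and Lum against Dcn in THY+ cells. Cells high in Fmod are mostly high in Col2a1 and Chad, most cells high in Lum are at 0 for Fmod, and in THY+ Lum and Dcn are mostly high together or at 0 together.

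The genes most like each member over all cells used were found by Pearson's r among 7501 genes that at least 10% of these cells held. These cells share the differences between populations, so r is also given after centring each gene within its population. For Chad they were Lect1 (0.87, centred 0.76), an antiangiogenic protein of cartilage, and the type IX collagen genes Col9a1 (0.84, centred 0.72) and Col9a2 (0.84, centred 0.72). For Fmod they were Col11a1 (0.78, centred 0.77), Clec3a (0.72, centred 0.68) and Sparc (0.69, centred 0.65). For Epyc they were the matrilin genes Matn1 (0.70, centred 0.49) and Matn3 (0.65, centred 0.41), and Zfp385b (0.63, centred 0.45). Chad, Fmod and Epyc thus each had genes of cartilage matrix among their nearest, and the value for Fmod and Col11a1 changed least with centring. With Spearman's rho the first gene was the same for 6 of 10 members, and after centring also for 6 of 10.

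The nearest genes of Aspn were Cd44 (0.74, centred 0.68), the hyaluronan receptor, Tmsb4x (0.73, centred 0.65) and Postn (0.72, centred 0.61), which encodes the periosteal matrix protein periostin. Bgn was nearest to Sparc (0.65, centred 0.66), to Fmod (0.58, centred 0.54) and to Oaz1 (0.57, centred 0.56). The first gene for Prelp was Fmod (0.57, centred 0.52). Before centring, Fmod is therefore among the 3 nearest genes of 2 other members. Omd was nearest to Frzb (0.55, centred 0.42), a secreted WNT antagonist, which was not its first gene after centring. For the remaining members no gene reached 0.5. The highest values were Itm2a for Dcn (0.48, centred 0.41), Boc for Ogn (0.45, centred 0.45) and Ncmap for Lum (0.44, centred 0.33). These last values are weak, and sparse detection limits them.

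Members that lie side by side in the genome did not share one distribution. In the mm10 build with GENCODE annotation, Dcn (chr10:97479609-97518143), Lum (chr10:97565128-97572703), Kera and Epyc (chr10:97644068-97682454) follow each other on the plus strand. The gaps between them are 46984, 34175 and 30375 bases. Epyc was detected in 2 of 34 6C3+ cells, while Dcn and Lum in the same block were detected in 23 and 18. On chromosome 13, Ecm2, Aspn (chr13:49544443-49567565), Omd (chr13:49582462-49592822) and Ogn (chr13:49608046-49624501) also lie on the plus strand, with gaps of 11653, 14896 and 15223 bases. Aspn and Omd, neighbours there, were opposite in the comparison of THY+ with CSP (5.29 and -5.10), and Ogn beside them differed by 0.29. With the log2 of the mean FPKM the Aspn value was 0.92. On chromosome 1, Prelp (chr1:133910304-133921414, minus strand) and Fmod (chr1:134037254-134048277, plus strand) lie 115839 bases apart, and these 2 had r = 0.57 over all cells. Chad (chr11:94565047-94569127) and Bgn (chrX:73483602-73495933), both on the plus strand, have no relative next to them.

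The stretches upstream of 3 genes are shown, since Chad and Fmod varied together in 6C3+ cells and Aspn ran opposite to them. They are the 150 bases before the RefSeq start on the GRCm38.p6 assembly (the same coordinates as mm10), all on the plus strand and written 5′ to 3′. Capitals mark a match, on either strand, to the core letters of the TATA box, TATAAA, or to 1 of 2 hexamers of the kind SOX factors bind. The first hexamer searched was ACAAAG. The other hexamer, which shares its opening letters with the first, was ACAATG.
Chad, chr11:94564897-94565046: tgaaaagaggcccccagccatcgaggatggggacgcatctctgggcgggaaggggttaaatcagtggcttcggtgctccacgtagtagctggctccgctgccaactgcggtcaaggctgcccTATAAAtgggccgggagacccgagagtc
Fmod, chr1:134037104-134037253: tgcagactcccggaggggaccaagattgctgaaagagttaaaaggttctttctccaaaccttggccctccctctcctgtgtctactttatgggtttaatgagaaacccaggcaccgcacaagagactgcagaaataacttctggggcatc
Aspn, chr13:49544293-49544442: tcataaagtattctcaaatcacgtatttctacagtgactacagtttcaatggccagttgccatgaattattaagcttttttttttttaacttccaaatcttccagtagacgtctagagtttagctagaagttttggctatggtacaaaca
Chad holds TATAAA on the gene strand, as do 4.84% of the 32851 windows of that length before all listed starts (7.57% on either strand). ACAAAG is in 9.88% and ACAATG in 6.41% of all windows on either strand, and neither is in these 3 stretches. Of the 10 members 8 had a listed upstream stretch, and a second start of Epyc was the only other one with a match, to ACAAAG. A match is a description of these letters only.

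A further 9 related genes were examined beside the members. Optc, Kera, Podn, Ecm2, Tsku and Chadl were detected in at least 1 cell, and Nyx, Podnl1 and Nepn in 0 cells. Kera, the keratocan gene between Lum and Epyc, was detected in 11 of 43 THY+ cells (25.6%, 13.5 to 41.2) and reached 13548 FPKM there, against 1 mSSC, 0 CSP and 4 6C3+ cells. Ecm2, beside Aspn, was detected in 26 of 34 6C3+ cells (76.5%, 58.8 to 89.3) and was higher in 6C3+ than in mSSC (2.22) and CSP (2.68). In these comparisons 0.682% and 1.7% of genes tested were past the limit upward. Chadl, the chondroadherin-like gene, was lower in THY+ and 6C3+ than in CSP (-4.14 and -3.87) and mSSC (-2.44 and -2.17), the direction Chad also had. Past the limit downward were 5.42% and 7.1% of genes tested against CSP, and 2.71% and 4.06% against mSSC. Tsku was detected in 25 of 37 mSSC cells and in 3 of 11, 10 of 43 and 11 of 34 cells of CSP, THY+ and 6C3+.

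Collagens, the partners of SLRPs, also differed between populations. Of 13 fibrillar collagen and fibril partner genes, 8 were higher and 3 lower in THY+ than in mSSC. Of all genes tested, 1.7% and 2.71% were past the limit in these directions, and of the frequent ones 5.53% and 11.4%. Col1a1 (7.16) had the largest difference upward, and Col2a1 (-7.78), Col11a2 (-5.12) and Col11a1 (-5.02) were the lower ones. In 6C3+ minus mSSC the counts were 6 and 3, against 0.682% and 4.06% of genes tested (2.45% and 16.2% of the frequent ones). In CSP minus mSSC they were 0 and 3, against 3.52% and 1.8% (11.1% and 4.91%). The lower ones there were Col3a1 (-3.77), Col1a1 (-2.92) and Col1a2 (-2.17). The median over these 13 genes in THY+ minus mSSC was 2.86, against -2.92 over the 10 SLRPs and 0.13 over all genes tested.

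The enzymes that build the chains of SLRPs were examined next. Of 21 genes for chondroitin and dermatan sulfate synthesis, 0 were higher and 3 lower in THY+ than in mSSC. The lower ones were Chst12 (-2.95), Csgalnact1 (-2.61) and Chst11 (-2.12), each a transferase acting on chondroitin. Past the limit downward were 2.71% of all genes tested and 11.4% of the frequent ones. In 6C3+ minus CSP 0 were higher and 5 lower, led by Chst11 (-4.89). There 7.1% of all genes tested and 21.9% of the frequent ones were past it downward. Dse, the epimerase that makes dermatan sulfate, was detected in 51.4% to 72.7% of the cells of each population, and its difference was within the limit in every comparison. All 5 keratan sulfate genes had a mean log2(FPKM + 1) under 2 in every population, so none could pass the limit in any comparison. Each was detected in at most 23.3% of the cells of any population. A share this low does not show that the other cells lacked the transcripts.

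Proteases, processing genes and receptors of SLRPs followed. Of 11 protease and processing genes, Mmp14, a membrane protease (3.51), and Pcolce, an enhancer of procollagen cleavage (2.72), were higher in THY+ than in mSSC. None were lower, and 1.7% of all genes tested and 5.53% of the frequent ones were past the limit upward. Bmp1, which cleaves the biglycan propeptide, was detected in 25 of 43 THY+ and 20 of 34 6C3+ cells and in 12 of 37 mSSC and 5 of 11 CSP cells. None of 9 receptor genes passed the limit in any of the 6 comparisons. Most of the 9 had a mean log2(FPKM + 1) under 2 in every population, where a difference of 2 cannot arise. Lrp1, an endocytic receptor, was detected in 60.5% to 67.6% of the cells of each population, whereas Tlr4 was detected in 0 mSSC, 0 CSP, 5 THY+ and 3 6C3+ cells. Of 5 TGF beta ligand and receptor genes, Tgfb2 was higher in CSP than in mSSC (2.02) and lower in THY+ than in CSP (-2.07). The shares of all genes tested past the limit in these directions were 3.52% and 5.42%, and of the frequent ones 11.1% and 17.4%. The other 4 TGF beta genes were within the limit throughout, and not all of them had means high enough to pass it. In THY+ minus mSSC the median difference was 0.30 over the chondroitin and dermatan sulfate genes, 0.10 over the keratan sulfate genes, 0.31 over the processing genes, 0.37 over the receptors and 0.32 over the TGF beta genes, against 0.13 over all genes tested. The list medians include genes too rare to be tested. In the order given, 19 of 21, 2 of 5, 7 of 11, 6 of 9 and 4 of 5 were tested, so the gene sets are unlike.

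Cells with under 1000 genes were picked for low detection, so fewer members in them follow from that selection. The share of all genes detected in them is not given here, so the counts have no reference. Among the 58 6C3+ cells with under 1000 genes Bgn was detected in 33 and Fmod in 14, and Epyc and Omd in 0. Among the 29 THY+ cells of that kind Fmod was detected in 14, Bgn in 13 and Epyc in 0. Among the 15 CSP cells Lum and Chad were detected in 7 each, and Aspn, Omd and Ogn in 0. The order of members was thus not kept between low-gene and other CSP cells, and with these cells a lower level per cell and a poorer capture cannot be told apart.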

How the data were processed

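Values were FPKM for each cell, deposited by the authors as 1 table of 24388 genes and 92 spike-in rows, with 0 columns left unused. Reads were handled on mm10 with SAMtools, per the submitters' processing notes (for the aligner, FPKM program, annotation and cell filters: not given in the sources used here). Whole reads cannot be recovered from FPKM, so depth is unknown.

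Columns were matched to cells by index names, and 0 columns were identical. The members and lists were chosen with earlier results of these data known. Differences are of mean log2(FPKM + 1), with no p-value at 1 sample per population. Named genes were all 10 members, up to 4 genes per list with the largest absolute difference, and the 3 genes most correlated with each member; list genes named for their share of cells (Kera, Tsku, Dse, Bmp1, Lrp1, Tlr4) were chosen after their values were seen. Ranking by correlation skipped unnamed models, pseudogenes, ribosomal protein genes, Xist and Y-linked genes. Alternatives changed the cells, pseudocount (0.1 or 10), scaling, averaging, detection limit and fold; leaving out mSSC and CSP cells that lack Col2a1 was added after seeing the data. The difference estimate was tested on simulated data and matched its known expectation, but planted differences in genes found in few cells often missed the limit or had the wrong sign. A first criterion, on the sign, was not met and was replaced by this match. The simulated cells were independent draws modelled on mSSC, without index set or spike-in effects, so the match checks the calculation only. Software was pandas 2.3.3, numpy 2.4.6, scipy 1.17.1 and matplotlib 3.10.9 under Python 3.11.15. Upstream stretches came from RefSeq.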

Additional observations from a re-analysis of the deposited data

How the results depend on the processing

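Of 60 member differences 30 were at least 2 on the log2 scale, and 9 of these stayed so, with the same sign, under all 10 settings: Chad in THY+ minus mSSC, 6C3+ minus mSSC and THY+ minus CSP, Epyc in the 4 comparisons of THY+ or 6C3+ with mSSC or CSP, Omd in 6C3+ minus CSP and Prelp in CSP minus mSSC. Among these 30 the sign turned in 5 instances: with the log2 of the mean FPKM for Aspn in 6C3+ minus CSP (-0.80), Dcn in THY+ minus CSP (0.43) and Omd in CSP minus mSSC (-0.56), and with all cells for Lum (-1.78) and Omd (-0.47) in CSP minus mSSC. Of the 30 differences under 2, 21 had the opposite sign under at least 1 setting. Counts of members higher were 0 in place of 1 in 6C3+ minus CSP and 6C3+ minus mSSC with all cells, matched cells, the log2 of the mean and pseudocount 10, and 2 in 6C3+ minus CSP at a limit of 1. In 6C3+ minus THY+ the higher count of 1 became 0 with all cells, the log2 of the mean and pseudocount 10, 2 with pseudocount 0.1, and 3 with rescaling and at a limit of 1. In CSP minus mSSC the higher count of 2 became 0 with all cells, the log2 of the mean and pseudocount 10, and in both THY+ comparisons with mSSC and CSP the 1 higher became 0 with the log2 of the mean. Counts of members lower became 2 (from 4) in 6C3+ minus CSP, 3 (from 7) in THY+ minus mSSC and 3 (from 5) in THY+ minus CSP with the log2 of the mean, and 2 in THY+ minus CSP with all cells. In 6C3+ minus THY+ the lower count of 1 became 2 with the log2 of the mean, 0 with pseudocount 10 and 0 without cells holding at least 6 pericyte genes. In 6C3+ minus mSSC the lower count of 4 became 8 with all cells, 7 with matched cells and 8 at a limit of 1. In CSP minus mSSC the lower count of 2 became 7 with all cells, 4 at a limit of 1, and 1 with the log2 of the mean, pseudocount 10 and rescaling. The cause of these shifts was not tested. The share of all genes past the limit under each setting is not given here, so the shifted counts are not results about the members alone. All 12 counts stayed within 1.5 times with at least 2000 genes, without cells with spike-ins over 50% and without mSSC and CSP cells lacking Col2a1. Cells matched on gene number (2221.1 to 3386.4 genes) were 25 mSSC, 5 CSP, 20 THY+ and 23 6C3+. No paired analysis was possible because no replicate numbers are shared. The 11 CSP cells and the unknown depth limit every comparison with CSP.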
